A study of Mus musculus with 24 samples.

Results

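The 45 genes described here encode the structural proteins of the mouse sarcomere and its Z-disc. They were taken from the gene count values of mouse gastrocnemius muscle by their Ensembl identifiers, matched to 45 listed symbols, and all 45 were found among 55401 genes. Of these, 44 passed the filter on low counts and were tested. They were sorted into 6 groups by the place of the protein: 11 thin filament genes, 6 thick filament genes, 5 genes of titin and the M-band, 13 Z-disc genes, 5 genes of desmin, Xin and the costamere, and 5 stretch and signalling genes.

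The muscle came from male C57BL6 mice. Young mice arrived at 4 weeks of age and adult mice at 10 weeks, and both were treated after a week, at 5 and 11 weeks. Of each age, 3 mice were scalded on back and belly, over 25% of the body surface in all, and the muscle was taken 24 h later. Sham mice were anesthetized and given the same analgesic, but were neither scalded nor given the fluid resuscitation of the burned mice, so burn and fluid cannot be told apart. Each of the 4 groups (adult sham, adult burn, young sham, young burn) thus held 3 mice, with 1 poly-A RNA library per mouse.

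The sarcomere is the contractile unit of striated muscle. Thin filaments of actin are anchored in the Z-disc by alpha-actinin, thick filaments of myosin are held together in the M-band by myomesins, and titin spans from one to the other. Proteins at the Z-disc, at the costamere and along the elastic part of titin pass on signals of load, and several of their genes are known to respond to stretch or injury.

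The total count per library ran from 4392605 to 5688512. Young burn replicate 2 stood apart: its mean correlation with the other libraries, over genes in log2 CPM, was 0.930, against 0.956 to 0.968 for the remaining 11. The study left 1 young burn animal out as an outlier, so values are for 11 libraries without young burn replicate 2 unless all 12 are named. Young burn thus has n = 2 and every other group n = 3. Levels are CPM, the share of a library's counts scaled to a common total, after TMM normalization, and a gene was called when its adjusted p was under 0.05 in edgeR's quasi-likelihood test over all genes tested. The muscle fibre markers Ckm, Mb, Pvalb, Pygm, Eno3, Ryr1, Cacna1s and Atp2a1 summed to 34760 to 52720 normalized CPM in the 11 libraries. The keratinocyte markers Krt5, Krt14 and Krt1 did not pass the filter on low counts, and the 5 markers of that list summed to 4.81 to 10.9 normalized CPM. The sums were 9.48 to 10.9 in young sham and 5.15 to 5.50 in adult sham. Krt10, the only 1 of the 5 tested, was called higher in young sham than in adult sham (log2 fold change 0.93).

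The 45 genes took a large part of all reads. Their share was 16.6% to 19.1% in young sham (mean 17.98%), 15.8% to 16.0% in young burn, 14.2% to 15.5% in adult sham and 15.1% to 16.2% in adult burn, and 13.6% in young burn replicate 2. Every young sham library thus lay above every other library. Summed thick filament levels were 45100 to 67070 normalized CPM in young sham, 39100 to 41160 in young burn, 26030 to 32360 in adult sham and 28970 to 31740 in adult burn. In this sum the young and adult libraries did not overlap, in sham or in burned mice, except that young burn replicate 2, at 29250, lay within the adult burn range. The 5 stretch and signalling genes ran the other way in sham mice, with 632 to 1094 in young sham and 1062 to 1952 in adult sham, where the ends of the ranges overlapped.

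**Figure D1:**
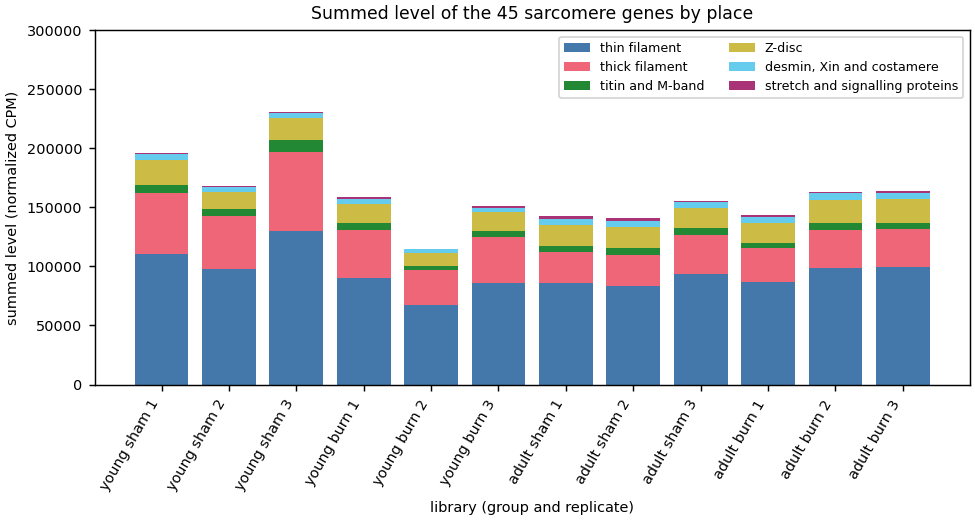
Summed normalized CPM of the 45 genes in each of the 12 libraries, stacked by place in the sarcomere. Thin and thick filament genes make up most of each bar, the thick filament part is larger in young than in adult libraries except in young burn replicate 2, which has the lowest bar.

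Per kilobase of exon, Acta1, the skeletal muscle actin, and Mylpf, the regulatory light chain of fast myosin, had the highest levels of the set. Acta1 stood at 22600 normalized CPM per kb in young sham, 18800 in young burn, 16780 in adult sham and 17660 in adult burn. The corresponding levels per kb of Mylpf were 25820, 19210, 10940 and 12680. Tnnt3 and Tnni2, the fast troponins T and I, and Myl1, the essential light chain of fast myosin, came next. At the lower end, Myom3, myomesin 3 of the M-band, had 2.47 to 5.36 normalized CPM per kb as a group mean, and Obsl1, obscurin-like 1, had 4.09 to 8.17.

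Tnnc2, the fast troponin C, was the only one of the 45 genes that did not pass the filter, with 0 to 6 counts per library. Its partners Tnnt3 and Tnni2 had group means of at least 11260 normalized CPM in every group. Of the 800 exon bases of Tnnc2, 592 (74%) lie over Ube2c on the opposite strand, and Ube2c itself had 7 to 25 counts. The counting leaves out reads that fall on 2 genes, and which strand was counted is not stated in the sources used here. The Tnnc2 count is therefore uncertain and no comparison was made. Mybph shares 49.9% of its exon bases with Adora1 on the opposite strand, Tmod1 32.6% with Tstd2 and Cmya5 20.7% with A630019I02Rik. Adora1 had 1 to 10 counts and Tstd2 16 to 34, against 99 to 726 for Mybph and 223 to 658 for Tmod1.

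The sequences just before the start site are shown for 5 genes: Smtnl1, Myom3 and Mybpc1, which had the smallest adjusted p in the interaction of burn and age, and Mylpf and Obsl1, which had the smallest in the age comparisons. They are from RefSeq on GRCm38.p6, 250 bases each, 5′ to 3′ on the strand of the gene, and 33 of the 45 genes had such a window. Capitals mark a match, on either strand, to a MEF2 site or to the E-box CAGCTG.
Smtnl1, chr2:84822653-84822902, minus strand: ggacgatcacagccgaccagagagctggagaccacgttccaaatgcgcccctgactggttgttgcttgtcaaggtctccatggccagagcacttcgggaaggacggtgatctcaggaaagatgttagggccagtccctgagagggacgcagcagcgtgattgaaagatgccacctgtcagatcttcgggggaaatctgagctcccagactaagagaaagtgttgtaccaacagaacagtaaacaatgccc
Myom3, chr4:135759465-135759714, plus strand: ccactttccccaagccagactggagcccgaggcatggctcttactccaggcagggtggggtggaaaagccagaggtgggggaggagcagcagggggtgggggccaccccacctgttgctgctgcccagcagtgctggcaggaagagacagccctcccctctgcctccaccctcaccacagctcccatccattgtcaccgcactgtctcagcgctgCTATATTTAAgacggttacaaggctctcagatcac
Mybpc1, chr10:88605153-88605402, minus strand: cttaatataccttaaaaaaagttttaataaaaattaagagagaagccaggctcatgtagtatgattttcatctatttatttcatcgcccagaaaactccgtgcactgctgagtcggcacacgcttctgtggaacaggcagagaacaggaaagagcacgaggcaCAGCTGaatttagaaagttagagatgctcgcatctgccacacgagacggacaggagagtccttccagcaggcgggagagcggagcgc
Mylpf, chr7:127211358-127211607, plus strand: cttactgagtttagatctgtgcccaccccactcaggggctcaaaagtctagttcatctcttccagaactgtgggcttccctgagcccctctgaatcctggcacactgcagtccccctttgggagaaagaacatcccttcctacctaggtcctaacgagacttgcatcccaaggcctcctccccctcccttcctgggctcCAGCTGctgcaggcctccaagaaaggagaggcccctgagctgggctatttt
Obsl1, chr1:75506453-75506702, minus strand: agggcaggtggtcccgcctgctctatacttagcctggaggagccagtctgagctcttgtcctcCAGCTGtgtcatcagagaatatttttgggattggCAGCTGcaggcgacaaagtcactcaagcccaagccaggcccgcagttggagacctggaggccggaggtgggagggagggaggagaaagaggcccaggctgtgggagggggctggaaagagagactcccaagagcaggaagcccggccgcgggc

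These windows differ in what they hold. The Smtnl1 window had no match to the 4 motifs searched. Myom3 had a MEF2 site starting 35 bases before the start, Mybpc1 and Mylpf had 1 E-box each, at 87 and 51 bases, and Obsl1 had 2, at 187 and 153 bases. The Mylpf window lies in an intron of a longer annotated Mylpf transcript, and 188 bases of the Mybpc1 window lie over an exon of Gm48752, whose count was 0 to 1 per library. None of the other 3 windows touches an annotated gene.

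The motifs searched on both strands in all windows were the CArG box (bound by serum response factor), the MEF2 site, the MCAT element CATTCC (bound by TEAD factors) and the E-box CAGCTG (bound by myogenic basic helix-loop-helix factors). In 38 windows of the 33 genes, 13.2% held a CArG box, against 1.47% of 32851 windows of all genes. The corresponding shares were 10.5% and 2.92% for the MEF2 site, 26.3% and 12.6% for MCAT, and 26.3% and 13.0% for the E-box. CArG boxes were in windows of Acta1, Fhl1, Ldb3 and Myom1, and MEF2 sites in those of Myom3, Myoz2, Ttn and Xirp2. No 2 different motifs overlapped in the windows of these genes. A match is a run of letters and not a measured binding site.

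After burn in adult mice, 3 of the 44 genes were lower than in adult sham (6.82%, against 0.348% of all 12651 genes tested that were called lower and 0.909% called in either direction), and none was higher. The 3 were Myom3, Mybpc1 and Smtnl1. The median log2 fold change of the 44 genes was 0.05, against 0.00 for all genes tested. In 13 of the 44 genes the adult burn and adult sham libraries did not overlap, which is 29.5% against 19.9% of all genes.

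Myom3 stood at 30.5, 35.2 and 30.4 normalized CPM in the adult sham libraries and at 19.1, 14.6 and 11.1 in the adult burn libraries. All 3 adult burn values were below all 3 adult sham values. The log2 fold change was -1.10 ± 0.18 (SE), a level 2.14-fold lower (adjusted p = 0.0128). Mybpc1, the slow isoform of myosin binding protein C, which bridges thick and thin filaments, had 559.7, 532 and 483 normalized CPM in adult sham and 333, 211 and 204 in adult burn. Here, too, the groups did not overlap, with adult burn replicate 1 the highest of the burned mice. The log2 fold change was -1.08 ± 0.19 (adjusted p = 0.0188). Smtnl1, a smoothelin-like protein that acts on myosin phosphatase, was measured at 85.9, 65.5 and 56.2 normalized CPM in adult sham and 42.6, 33.0 and 35.0 in adult burn. Adult sham replicate 1 was the highest, and the lowest sham value still exceeded the highest burn value. Smtnl1 thus differed by a log2 fold change of -0.91 ± 0.16 (adjusted p = 0.0176). With all 12 libraries the log2 fold changes of the 3 were -1.10, -1.07 and -0.91, since young burn replicate 2 is in neither group. None was then called (adjusted p = 0.569, 0.556 and 0.604), where 0.00806% of all genes were. An unadjusted p under 0.05 was found for 11 of the 44 genes, against 852 of all 12408 genes. DESeq2 on the 12 libraries also called 0 of the 44. On 11 libraries, Myom3 lost its call without adult burn replicate 2 (0.0646), adult burn replicate 3 (0.0506), Mybpc1 without adult burn replicate 2 (0.101), adult burn replicate 3 (0.0794), adult sham replicate 1 (0.0703), and Smtnl1 without adult burn replicate 2 (0.0890), adult burn replicate 3 (0.0639), adult sham replicate 1 (0.0625), with the adjusted p in brackets.

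Some genes of the slow, 2A and 2X fibre types were lower in the same adult burn libraries. Myh2, the 2A heavy chain, had 771, 732 and 822 normalized CPM in adult sham and 357, 242 and 204 in adult burn, and differed by -1.53 ± 0.21 on the log2 scale (adjusted p = 0.00325), and Myh1, the 2X heavy chain, by -1.14 ± 0.14 (adjusted p = 0.00177). Myh4, the 2B heavy chain and the most abundant of them, was not called, at 0.06 ± 0.18 (adjusted p = 0.926). Of 8 slow fibre genes, Myl2 and Myl3 were called lower and all 8 had log2 fold changes below 0, with a median of -0.96. Their summed level was 779 to 897 normalized CPM in adult burn and 813 to 2113 in adult sham, adult sham replicate 1 being the lowest of its group. With all 12 libraries, Myh1, Myh2, Myl2 and Myl3 were not called (adjusted p = 0.297, 0.481, 0.653 and 0.604). Fewer cells or fibres of a type and less RNA per fibre cannot be told apart in such bulk libraries, and the part of fibre type in the values of Myom3, Mybpc1 and Smtnl1 was not tested.

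The largest log2 fold change of the set in adult mice was that of Ankrd1, a stretch-responsive ankyrin repeat protein that binds titin. It had 28.4, 32.3 and 19.0 normalized CPM in adult sham and 63.8, 42.1 and 107 in adult burn. The groups did not overlap, but the burned mice spread widely, with replicate 3 the highest. The difference was 1.41 ± 0.33 on the log2 scale and was not called (adjusted p = 0.0613). Next among the values above 0 were Xirp1 (0.66 ± 0.17, adjusted p = 0.0790), Flnc (0.61 ± 0.15, adjusted p = 0.0665) and Pdlim3 (0.58 ± 0.18, adjusted p = 0.144), none of them called by edgeR. DESeq2 on the 11 libraries called 6 of the genes (2.35% of all genes with an adjusted p were called), the 3 lower genes and Flnc, Pdlim3 and Xirp1, each higher after burn. Without adult burn replicate 2, edgeR called Ankrd1, Flnc and Xirp1 in place of the 3 lower genes.

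**Figure D2:**
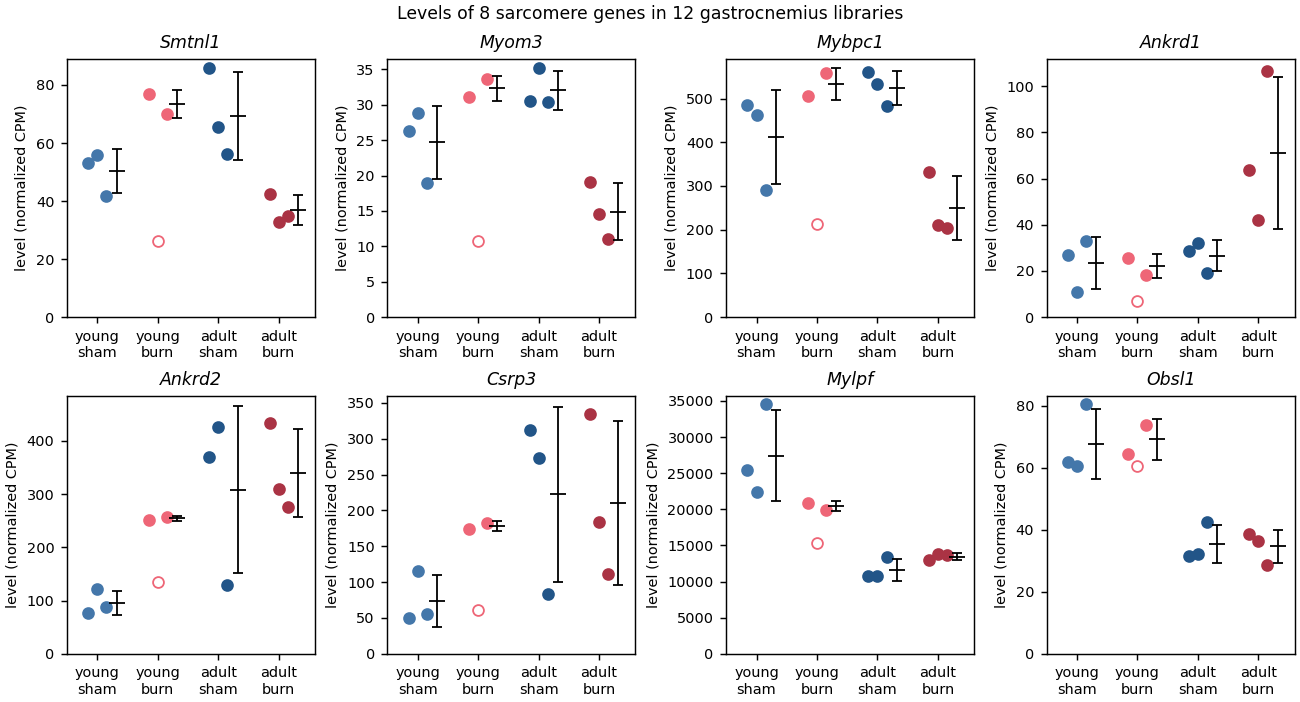
Normalized CPM of 8 genes in the 12 libraries. Each point is a library, the open point is young burn replicate 2, and the bar beside each group is the mean ± SD of its libraries (n = 3, or n = 2 for young burn without replicate 2). Smtnl1, Myom3 and Mybpc1 are lowest in adult burn and in young burn replicate 2, while Mylpf and Obsl1 separate young from adult libraries.

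After burn in young mice, none of the 44 genes was called against young sham by edgeR, in 11 or in all 12 libraries, where 0.664% and 0.0645% of all genes were. An unadjusted p under 0.05 was found for 19 of the 44 genes in 11 libraries and 16 in 12. Over all genes tested it was found for 2027 of 12651 in 11 libraries and 2523 of 12408 in 12. DESeq2 called 6 on 11 libraries (Myl1, Xirp2, Tmod4, Tnnt3 and Tpm1 lower and Actn2 higher), where it called 2.13% of all genes, and 10 on 12 libraries, where it called 4.62%. The median log2 fold change of the 44 genes was -0.06, against 0.01 for all genes tested, and the groups did not overlap in 22 of the 44 genes (50%), against 32.4% of all genes.

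The 2 largest values belonged to load-responsive genes. Ankrd2, a relative of Ankrd1, had 76.8, 122 and 88.4 normalized CPM in young sham and 252 and 257 in young burn replicates 1 and 3, and 135 in replicate 2. Its log2 fold change was 1.42 ± 0.34 (adjusted p = 0.0693). Csrp3, the muscle LIM protein of the Z-disc, had 50.3, 116 and 55.6 in young sham, 174 and 183 in young burn and 61.7 in replicate 2, and differed by 1.27 ± 0.48 on the log2 scale (adjusted p = 0.209). In both genes, young burn replicates 1 and 3 lay above all young sham libraries, and in Csrp3 replicate 2 lay among them. Actn2, the alpha-actinin of all fibres, was tight within groups, at 356, 361 and 366 normalized CPM in young sham, 594 and 568 in young burn and 318 in replicate 2. Its log2 fold change was 0.70 ± 0.16 and missed the threshold (adjusted p = 0.0553), and became 0.45 with all 12 libraries. Fitted on these 2 groups alone, or scaled by library size alone (which moves the median of all genes by 0.16), Actn2 and Ankrd2 were called higher in young burn. Of the 10 thin filament genes tested, 9 had log2 fold changes below 0, from -0.52 for Tpm1 upwards, none of them called.

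Some markers of other cells were called after burn at both ages. Of 7 macrophage and neutrophil markers, Lyz2 and S100a9 were called higher in young burn than in young sham and all 7 had log2 fold changes above 0, with the list summing to 242 to 424 normalized CPM in young burn and 145 to 197 in young sham. Of 8 tendon markers, Chad and Kera were called lower in young burn and all 8 were below 0, with sums of 154 to 286 and 466 to 486. These 4 were not called with all 12 libraries (adjusted p = 0.0557 to 0.0628). After burn in adult mice, none of either list was called, but 6 of the 7 macrophage and neutrophil markers were above 0 (median 0.70, 4 with an unadjusted p under 0.05) and all 8 tendon markers were below 0 (median -0.89, 6 with an unadjusted p under 0.05). Over all genes tested, 1731 of 12651 had an unadjusted p under 0.05 in adult mice. The tendon sums were 163 to 274 normalized CPM in adult burn and 173 to 415 in adult sham, and the macrophage and neutrophil sums 187 to 262 and 155 to 192. Of 5 smooth muscle genes tested, Smtn was called lower in adult burn on 11 libraries, and all 5 were below 0 (median -0.39). Of 5 endothelial genes, only Kdr was called lower, and the list had a median of -0.04 and a highest value of 0.02. Neither Smtn nor Kdr was called on 12 libraries. The part of these cells in the results was not tested.

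**Figure D3:**
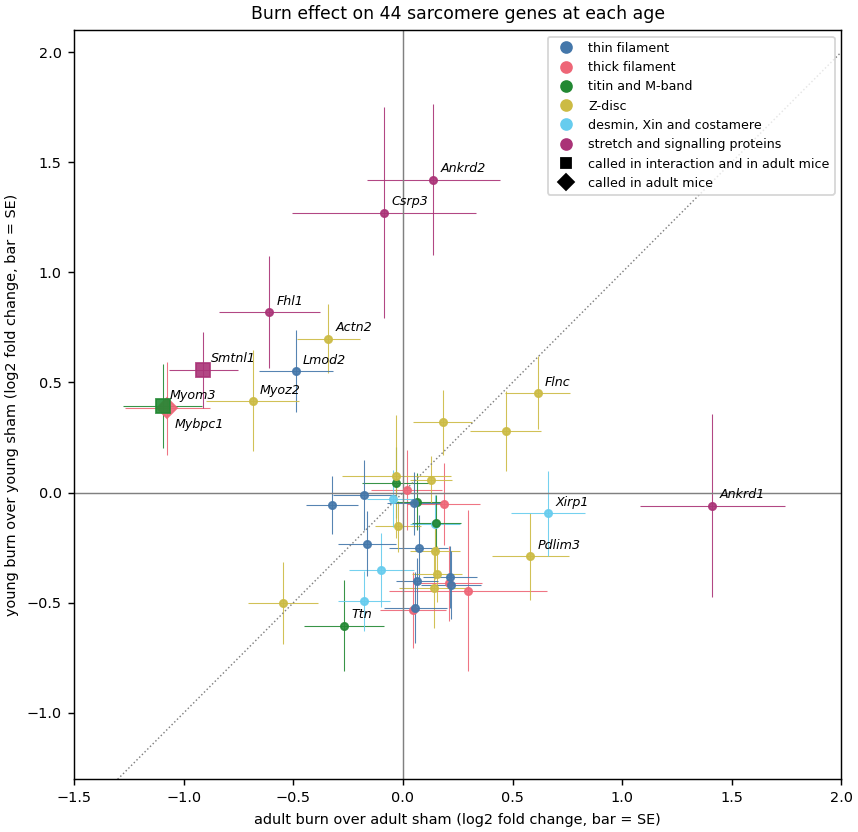
Log2 fold change after burn in adult mice (x axis) and in young mice (y axis) for the 44 genes, coloured by place, with SE as bars and a dotted line where both are equal. Squares mark Smtnl1 and Myom3, called in the interaction and in adult mice, and the diamond Mybpc1, called in adult mice. These 3 and Fhl1, Actn2, Lmod2 and Myoz2 lie in the upper left, below 0 in adult and above 0 in young mice, and Ankrd1 lies far to the right.

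The burn effect itself was compared between ages by the interaction, the log2 fold change after burn in young mice minus that in adult mice. Of the 44 genes, 2 were called (4.55%, against 0.0949% of all genes tested), Smtnl1 and Myom3. The median of the 44 values was -0.15, against 0.01 for all genes. Both comparisons of burn with sham enter this difference, so it is not independent of them.

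Smtnl1 had 53.2, 55.9 and 41.8 normalized CPM in young sham, 77.0 and 70.1 in young burn and 26.2 in young burn replicate 2. Burn thus went with higher values in young burn replicates 1 and 3 and with lower values in adult mice. The interaction was 1.47 ± 0.23 (adjusted p = 0.0240). Myom3 had 26.2, 28.9 and 18.9 in young sham, 31.1 and 33.6 in young burn and 10.7 in replicate 2, the last below every other library. Its interaction was 1.49 ± 0.26 (adjusted p = 0.0474). Mybpc1 followed the same order, with 485, 462 and 289.9 in young sham, 506 and 559.5 in young burn and 214 in replicate 2, and an interaction of 1.46 ± 0.29 that was not called (adjusted p = 0.0867). The calls rest on few libraries. With young burn replicate 2 in the fit, the interaction was 1.10 for Smtnl1 and 1.12 for Myom3 (adjusted p = 0.683 for both), and 0 of the 44 genes were called (0% of all genes were). An unadjusted p under 0.05 was then found for 17 of the 44 genes, against 891 of all 12408 genes. DESeq2 called 0 on 12 libraries and 6 on 11 (Smtnl1, Myom3, Mybpc1, Actn2, Lmod2 and Tnnt3), where it called 0.409% of all genes. In edgeR on 11 libraries, Smtnl1 lost its call without adult burn replicate 2 (0.0718), adult burn replicate 3 (0.0797), young burn replicate 1 (0.158), young burn replicate 3 (0.0660), young sham replicate 3 (0.0696). Myom3 lost it without adult burn replicate 2 (0.125), adult burn replicate 3 (0.115), adult sham replicate 1 (0.0993), adult sham replicate 2 (0.143), young burn replicate 1 (0.158), young burn replicate 3 (0.208), young sham replicate 1 (0.0623), young sham replicate 3 (0.0850).

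Some other members had a large interaction that was not called. Among them were Fhl1, a LIM protein of the sarcomere (1.43 ± 0.34, adjusted p = 0.198), Actn2 (1.04 ± 0.21, adjusted p = 0.0972), Lmod2, a leiomodin that nucleates actin (1.04 ± 0.25, adjusted p = 0.198), and Ankrd1 (-1.47 ± 0.53, adjusted p = 0.352). The 5 stretch and signalling genes (Smtnl1, Fhl1, Csrp3, Ankrd2 and Ankrd1) had a median interaction of 1.36, with 4 above 0 and 1 below. Of these 5, 4 had an unadjusted p under 0.05 in edgeR, against 1408 of all 12651 genes. The highest Z-disc value, above that of Actn2, was 1.10. Among the genes outside the set, Myh2 and Myh1 were called in the interaction, at 2.16 ± 0.31 (adjusted p = 0.0126) and 1.72 ± 0.21 (adjusted p = 0.00638), and at 1.81 and 1.49 with all 12 libraries neither was called (adjusted p = 0.683 for both). All 8 slow fibre genes had an interaction above 0, with a median of 1.05, and none of them was called.

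More of the set was called between ages than between burn and sham. Comparing young sham to adult sham, 12 of the 44 genes were called (27.3%, against 11.8% of all genes tested), 6 of them higher in young mice (13.6%, against 5.27%) and 6 lower (13.6%, against 6.5%). The median log2 fold change was -0.11, against 0.00 for all genes. Scaled by library size alone, which moves the median of all genes by -0.13, 15 genes were called, 5 higher and 10 lower (14.2% of all genes, 2.79% higher and 11.4% lower). DESeq2 called 14 on 11 libraries and 8 on 12 (9.23% and 5.39% of all genes). The libraries of the 2 groups did not overlap in 21 of the 44 genes (47.7%), against 31.1% of all genes.

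The genes higher in young sham were led by thick filament genes. Mylpf had 25390, 22370 and 34510 normalized CPM in young sham and 10730, 10720 and 13400 in adult sham. The lowest young value was above the highest adult one, and the log2 fold change was 1.23 ± 0.15, a level 2.34-fold higher (adjusted p = 0.000337). Myl1 had 21310, 19850 and 29040 in young sham and 12070, 10940 and 14440 in adult sham (0.90 ± 0.15, adjusted p = 0.00219). Mybph, myosin binding protein H, showed the largest difference, with 109.8, 146 and 154 normalized CPM in young sham and 20.6, 22.4 and 57.5 in adult sham. Adult sham replicate 3 was above the other adult sham libraries but below every young one, and the log2 fold change was 2.02 ± 0.35, or 4.05-fold (adjusted p = 0.00261). The other thick filament genes, Mylk2, Mybpc1 and Mybpc2, had log2 fold changes of -0.36 to -0.23 and were not called.

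Outside the thick filament, Obsl1, which links titin and myomesin in the M-band, had 62.0, 60.5 and 80.7 normalized CPM in young sham and 31.5, 32.1 and 42.5 in adult sham (0.92 ± 0.15, adjusted p = 0.00186). Pdlim7, a PDZ and LIM protein of the Z-disc, had 420.1, 424 and 514 and 299, 288 and 349.8 (0.53 ± 0.11, adjusted p = 0.00923). Neither gene overlapped between the ages. Tpm2, beta-tropomyosin, had 5428, 4808 and 7158 in young sham and 4349, 4250 and 3749 in adult sham (0.48 ± 0.14, adjusted p = 0.0405). Acta1 and Tpm1 also stood higher in every young sham library, with log2 fold changes of 0.42 ± 0.13 (adjusted p = 0.0546) and 0.45 ± 0.14 (adjusted p = 0.0512), just outside the threshold.

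Of the 6 genes lower in young sham, 3 belong to the 5 stretch and signalling genes (60% of these 5, against 6.5% of all genes). Ankrd2 had 76.8, 122 and 88.4 normalized CPM in young sham and 369, 426 and 129.8 in adult sham. Adult sham replicate 3 lay close to the highest young value, although the groups did not overlap. The log2 fold change was -1.70 ± 0.32, a level 3.24-fold lower in young mice (adjusted p = 0.00410). Csrp3 had 50.3, 116 and 55.6 in young sham and 311, 273 and 83.5 in adult sham, and here adult sham replicate 3 fell among the young libraries (-1.59 ± 0.44, adjusted p = 0.0305). Fhl1 had 511, 789 and 413 and 1056, 1155 and 774, with young sham replicate 2 above adult sham replicate 3 (-0.81 ± 0.23, adjusted p = 0.0344). Flnc, filamin C, an actin crosslinker of the Z-disc and costamere, had 286, 288 and 321 in young sham and 522, 563 and 390.4 in adult sham, without overlap (-0.73 ± 0.15, adjusted p = 0.00677). Tmod1, a tropomodulin that caps the thin filament, had 78.5, 66.4 and 54.2 and 106, 94.2 and 111 (-0.66 ± 0.13, adjusted p = 0.00491). Xirp2, a Xin repeat protein that binds actin, had 927, 713 and 1010 and 1150, 1224 and 1130 (-0.41 ± 0.12, adjusted p = 0.0380). Both groups of values were apart in Tmod1 and in Xirp2.

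Of these 12 calls, 8 held with each of the 11 libraries left out in turn. Tpm2 lost its call without adult sham replicate 1 (0.0783), adult sham replicate 2 (0.0862), adult sham replicate 3 (0.125), young burn replicate 1 (0.0547), young burn replicate 3 (0.0544), young sham replicate 3 (0.150), and Xirp2 without adult burn replicate 3 (0.0513), adult sham replicate 1 (0.0878), adult sham replicate 2 (0.133), adult sham replicate 3 (0.0597), young burn replicate 1 (0.0521), young burn replicate 3 (0.0515), young sham replicate 2 (0.121). Csrp3 lost it without adult sham replicate 1 (0.116), adult sham replicate 2 (0.102), young sham replicate 1 (0.0799), young sham replicate 3 (0.133), and Fhl1 without adult sham replicate 1 (0.0957), adult sham replicate 2 (0.132), young sham replicate 1 (0.0784), young sham replicate 3 (0.154). With all 12 libraries, 7 genes were called, against 3.76% of all genes: Ankrd2, Flnc, Pdlim7, Myl1, Obsl1, Mylpf and Mybph. Young sham replicate 3 had the lowest TMM factor of the 12 libraries (0.826, against 0.937 to 1.19) and the highest share of mitochondrial counts (15.1%, against 7.64% to 11.95%).

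Other genes moved between the sham groups as well. Actc1, the cardiac actin that is also made in developing skeletal muscle, was called higher in young sham, and the other 4 developmental genes, Myh3, Myh8, Tnnt2 and Myl4, were not called. Between the burned groups on 11 libraries, 4 of these 5 (Myh8, Tnnt2, Myh3 and Actc1) were called higher in young mice (80%, against 20.7% of all genes). The tendon markers Tnmd and Kera were called higher in young sham, and the smooth muscle genes Lmod1 and Myh11 lower. Of the 8 muscle fibre markers, 4 were called, Pvalb higher and Cacna1s, Mb and Atp2a1 lower in young sham. Between the burned groups, 4 of them (Cacna1s, Atp2a1, Pygm and Ckm) were called lower in young mice, and 4 of 5 endothelial markers (Tek, Kdr, Cdh5 and Emcn) higher. The part of these cells in the age differences of the sarcomere genes was not tested.

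**Figure D4:**
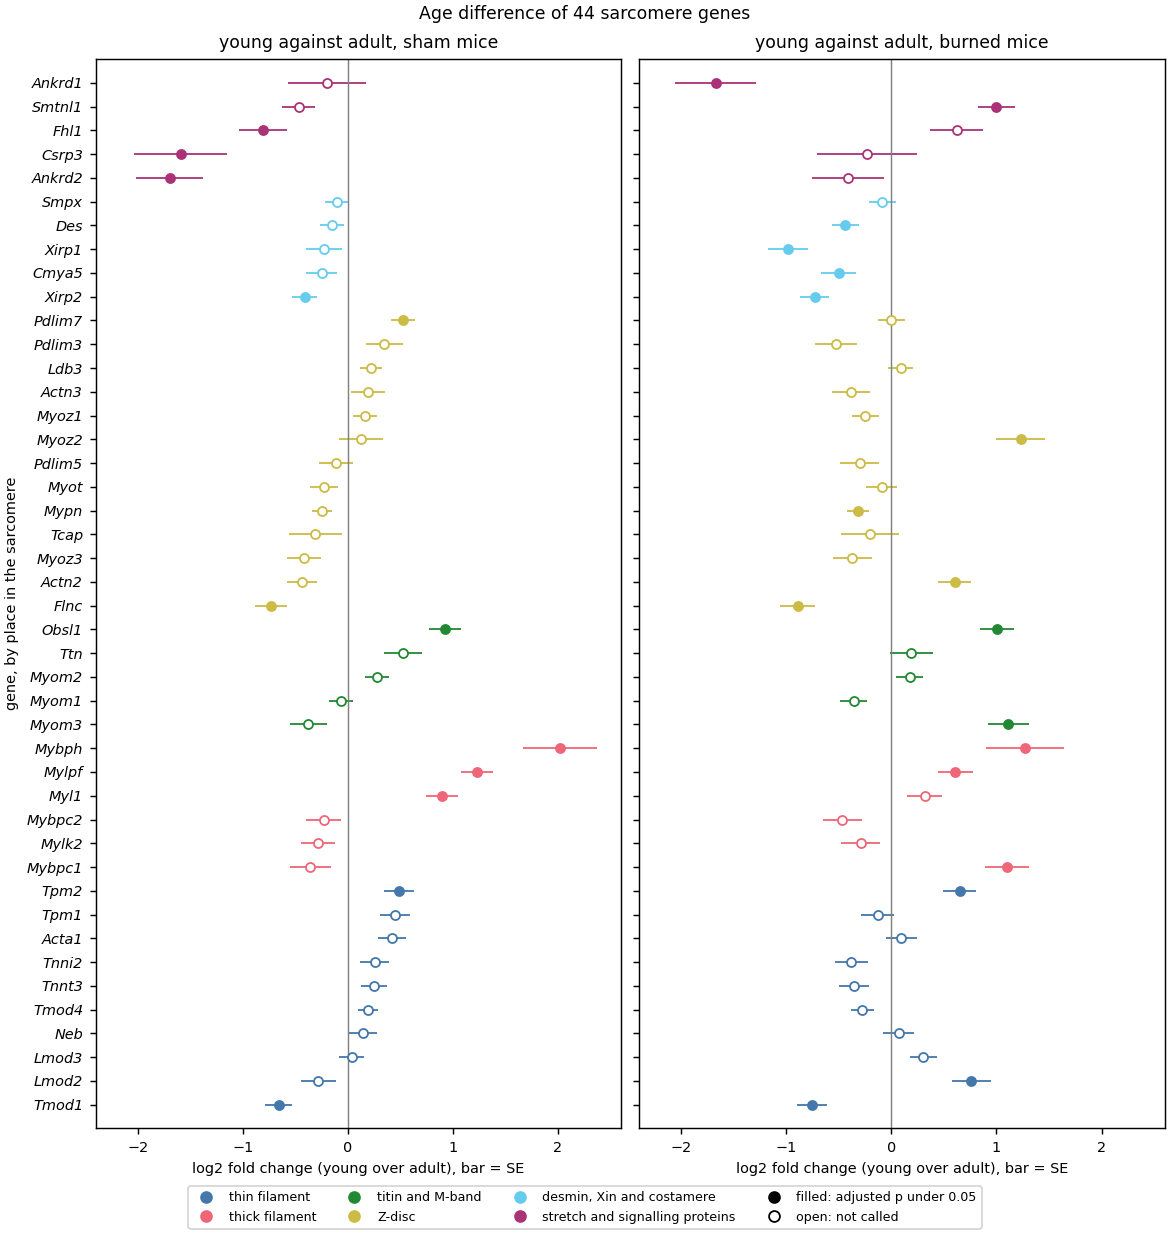
Log2 fold change of young over adult mice for the 44 genes, in sham mice (left) and burned mice (right, without young burn replicate 2), with SE as bars, ordered by place in the sarcomere. Filled points are genes called by edgeR, 12 in sham and 18 in burned mice; Mybph is the highest in both panels, and Smtnl1, Myom3 and Mybpc1 are below 0 in sham and above 0 in burned mice.

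Between the burned groups, 18 of the 44 genes were called (40.9%, against 20.7% of all genes tested). In young burn, 10 were higher (22.7%, against 11.2%) and 8 lower (18.2%, against 9.54%) than in adult burn. The median log2 fold change was -0.17, against 0.01 for all genes, and the groups did not overlap in 32 of the 44 genes (72.7%), against 53.2% of all genes. With all 12 libraries, 8 genes were called (10.8% of all genes were), Obsl1 higher and Ankrd1, Xirp2, Tmod1, Flnc, Cmya5, Des and Mypn lower. DESeq2 called 22 on 11 libraries and 15 on 12 (15.3% and 11.2% of all genes).

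Obsl1 had 64.5 and 73.9 normalized CPM in young burn, 60.6 in young burn replicate 2 and 38.8, 36.4 and 28.7 in adult burn, so that even replicate 2 lay above every adult library. Its log2 fold change was 1.00 ± 0.16 (adjusted p = 0.00108), and 0.94 with all 12 libraries (adjusted p = 0.00522). Mylpf had 20890 and 19920 in young burn, 15270 in replicate 2 and 12920, 13790 and 13670 in adult burn (0.61 ± 0.17, adjusted p = 0.0203). Mybph had 88.2 and 111, 61.7 and 66.5, 28.1 and 28.5 in the same order (1.27 ± 0.37, adjusted p = 0.0251). In Mybph, adult burn replicate 1 was above young burn replicate 2 and below the other young burn libraries.

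The genes lower after burn in adult mice were higher in young burn than in adult burn. The log2 fold changes were 1.11 ± 0.20 for Myom3 (adjusted p = 0.00176), 1.10 ± 0.21 for Mybpc1 (adjusted p = 0.00299) and 1.00 ± 0.17 for Smtnl1 (adjusted p = 0.00154). These values share the adult burn libraries with the comparison of adult burn and adult sham. Myoz2, the calsarcin of slow fibres, which ties calcineurin to the Z-disc, had 175, 162 and 82.4 normalized CPM in young sham, 172 and 199.8 in young burn, 78.4 in replicate 2, 118, 141 and 124 in adult sham and 95.6, 71.3 and 71.4 in adult burn. Young burn replicates 1 and 3 were above all adult libraries, and replicate 2 was among the adult burn values. Between the burned groups its log2 fold change was 1.23 ± 0.23 (adjusted p = 0.00264). None of these 4 genes was called by edgeR with all 12 libraries (adjusted p = 0.0744 to 0.178), while DESeq2 on 12 called Myoz2. Of the 8 slow fibre genes, Myl3, Myl2 and Tnnt1 were called higher in young burn. The 8 summed to 1408 to 1811 normalized CPM in young burn replicates 1 and 3 and to 779 to 897 in adult burn, but to 581 in young burn replicate 2, below every adult burn library, and none of the 8 was called with all 12 libraries.

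Smaller differences in the same direction were found for Lmod2, Tpm2 and Actn2. Lmod2 had 107, 92.6 and 65.4 normalized CPM in young sham, 116 and 142 in young burn, 88.1 in replicate 2, 100.4, 126 and 94.1 in adult sham and 86.9, 65.4 and 75.8 in adult burn. The burned groups did not overlap (0.76 ± 0.18, adjusted p = 0.0106). Tpm2 had 5887 and 5522 in young burn, 3273 in replicate 2 and 4035, 3182 and 3719 in adult burn (0.65 ± 0.16, adjusted p = 0.0107). Actn2 had 510.1, 547 and 399.9 in adult sham and 482, 336 and 334 in adult burn, and differed between the burned groups by 0.60 ± 0.16 (adjusted p = 0.0156). Replicate 2 lay within the adult burn range in Tpm2 and below it in Actn2.

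The 8 genes lower in young burn than in adult burn were Ankrd1, Xirp1, Flnc, Xirp2, Tmod1, Cmya5, Des and Mypn. Ankrd1 had 27.0, 11.1 and 32.8 normalized CPM in young sham, 25.7 and 18.3 in young burn, 7.10 in replicate 2 and 63.8, 42.1 and 107 in adult burn. Adult burn was above all other libraries, and young burn replicate 2 was the lowest of all. The log2 fold change between the burned groups was -1.67 ± 0.39, 3.19-fold lower in young burn (adjusted p = 0.00830). Xirp1, the Xin protein of injured and remodelling fibres, had 69.5, 87.2 and 64.1 in young sham, 70.5 and 66.4 in young burn, 126 in replicate 2, 92.5, 89.4 and 75.04 in adult sham and 159.8, 96.2 and 151 in adult burn. Replicate 2 was thus above the other young burn libraries and within the adult burn range, and the log2 fold change moved from -0.98 ± 0.19 (adjusted p = 0.00335) to -0.63 with all 12 libraries (adjusted p = 0.108).

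Flnc had 409 and 400.0 normalized CPM in young burn, 548 in replicate 2 and 829.7, 587 and 845 in adult burn (-0.89 ± 0.17, adjusted p = 0.00281). Xirp2 had 632 and 612, 322 and 939, 1060 and 1107 (-0.73 ± 0.14, adjusted p = 0.00275), and Tmod1 had 62.9 and 64.4, 42.2 and 100.3, 118 and 105 (-0.76 ± 0.14, adjusted p = 0.00275). In all 3 genes every young burn library, replicate 2 included, was below every adult burn library. Cmya5, myospryn, a costameric partner of desmin, had 948, 579.9 and 771 in young sham, 597 and 593 in young burn, 445 in replicate 2, 774, 983 and 956 in adult sham and 875, 882 and 779 in adult burn (-0.50 ± 0.17, adjusted p = 0.0458). Des, the intermediate filament that ties neighbouring Z-discs together, had 2705, 2124 and 2354, 2103 and 2201, 1820, 2773, 2666 and 2494 and 2699, 2850 and 3244 in the same order (-0.44 ± 0.13, adjusted p = 0.0266). Mypn, myopalladin, a Z-disc partner of nebulin and alpha-actinin, had 268, 241 and 241, 247 and 268, 181, 294, 312 and 276 and 298, 328 and 341 (-0.32 ± 0.11, adjusted p = 0.0497). In these 3 genes the young burn values, replicate 2 included, were below all adult burn values, though by less than in Flnc. Of the 5 genes of desmin, Xin and the costamere, 4 were called lower (80%, against 9.54% of all genes), and Smpx was not (-0.09 ± 0.13, adjusted p = 0.662). With all 12 libraries Xirp1 was not called either.

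Of the 18 calls, 9 held with each library left out in turn, those of Obsl1, Mybpc1, Myom3, Smtnl1, Myoz2, Flnc, Xirp1, Xirp2 and Tmod1. Mypn lost its call without adult burn replicate 2 (0.106), adult burn replicate 3 (0.132), adult sham replicate 1 (0.0657), adult sham replicate 2 (0.0551), adult sham replicate 3 (0.0525), young burn replicate 1 (0.279), young burn replicate 3 (0.116), young sham replicate 2 (0.0519). Cmya5 lost it without adult burn replicate 1 (0.0863), adult burn replicate 2 (0.107), adult burn replicate 3 (0.0585), adult sham replicate 2 (0.0509), young burn replicate 1 (0.175), young burn replicate 3 (0.183), Mylpf without adult burn replicate 1 (0.0508), adult burn replicate 2 (0.05001), adult burn replicate 3 (0.0519), young burn replicate 1 (0.118), young burn replicate 3 (0.0789), and Mybph without adult burn replicate 2 (0.0916), adult burn replicate 3 (0.0889), young burn replicate 1 (0.0725), young burn replicate 3 (0.156). For Actn2 the libraries were adult burn replicate 2 (0.0608), adult burn replicate 3 (0.0595), young burn replicate 1 (0.105), young burn replicate 3 (0.0701), and for Des they were adult burn replicate 3 (0.0884), young burn replicate 1 (0.155), young burn replicate 3 (0.102). Tpm2 lost its call without young burn replicate 1 (0.0871), Lmod2 without young burn replicate 3 (0.117), and Ankrd1 without young burn replicate 3 (0.0862). Without young burn replicate 1 or 3, 1 young burn library is left and is assumed to vary like the other groups.

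The 2 age comparisons share no library. Of the 12 genes called between the sham groups and the 18 called between the burned groups, 7 were called in both (58.3% of the 12 and 38.9% of the 18), all 7 in the same direction: Mylpf, Mybph, Obsl1 and Tpm2 higher and Flnc, Tmod1 and Xirp2 lower in young mice. Of all 44 genes, 40.9% were called between the burned groups. The share of all genes tested that was called in both was not counted, so the overlap is given as a description. Ankrd2, Csrp3 and Fhl1, called lower in young sham, were not called between the burned groups, with log2 fold changes of -0.41 ± 0.34, -0.23 ± 0.47 and 0.62 ± 0.25. Whether their age difference itself changed with burn is the interaction, which edgeR on 11 libraries did not call for any of them. It was called for Ankrd2 without adult sham replicate 3 and for Fhl1 without adult burn replicate 1. Without the filter on low counts it was called for all 3 (0.859% of all genes), so a change is left undecided. Over the 5 comparisons on 11 libraries, edgeR called 23 of the 45 genes at least once, a count that was not made over all genes, and did not call the other 22, Tnnc2 included. The latter hold the abundant Acta1, Tnnt3, Tnni2 and Tpm1 and the giant proteins titin (Ttn) and nebulin (Neb), of which DESeq2 on 11 libraries called Acta1, Tpm1 and Ttn between the sham groups and Tnnt3 and Tnni2 between the burned groups. Ttn had 4871, 4518 and 7726 normalized CPM in young sham, 3960 and 3476 in young burn, 3454, 4061 and 4307 in adult sham and 2663, 3847 and 3313 in adult burn, with young sham replicate 3 far above the rest.

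Young burn replicate 2 had low levels of most of the set. In 28 of the 44 genes (63.6%) its value was below that of each of the other 11 libraries, and in 0 was it above them all, against 22.8% below and 18.8% above for all genes tested. The median log2 ratio to the mean of the other young burn libraries was -0.60 for the 44 genes and -0.10 for all genes. The lowest ratios were those of Tcap, telethonin, which caps titin at the Z-disc, with 750.3 normalized CPM in replicate 2 against 2873 and 2576 in the other young burn libraries (log2 ratio -1.86), and Mylk2, the kinase of the regulatory light chain, with 264 against 883 and 865 (-1.72). Only Xirp1, Flnc, Pdlim3 and Pdlim7 stood above the other young burn libraries on average, at log2 ratios of 0.88, 0.44, 0.17 and 0.10. The chaperone genes Hspb1 and Bag3, whose products act on filamin C and the Z-disc, were high in the same library, at 1409 and 476 normalized CPM against 159 to 414 and 141 to 208 in the other 11, and the Z-disc genes Synpo2 and Ky were low, at 44.8 and 14.4.

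**Figure D5:**
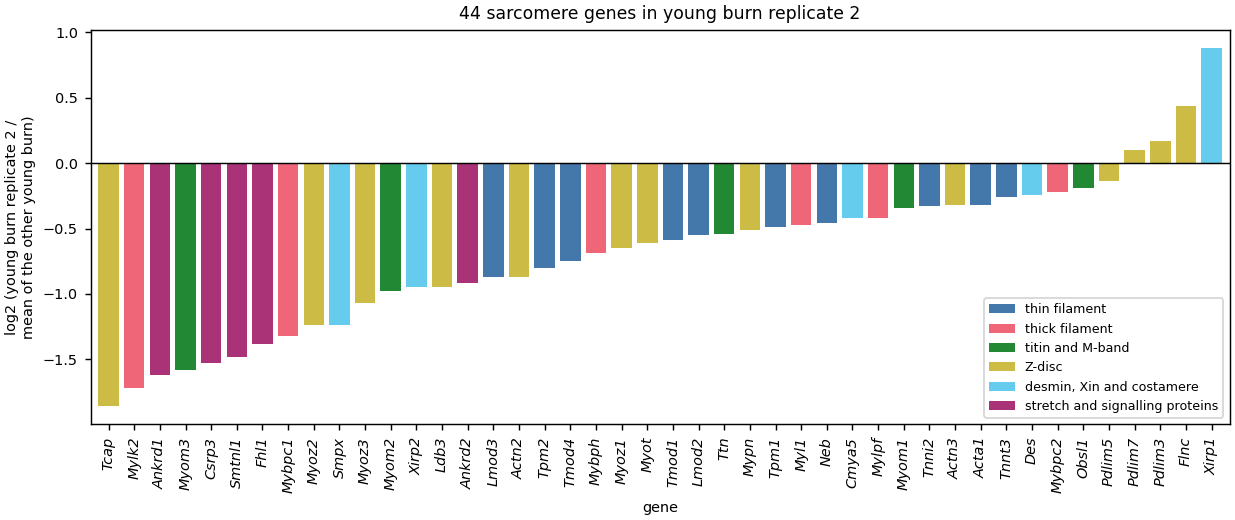
Log2 ratio of the level in young burn replicate 2 to the mean of young burn replicates 1 and 3, for the 44 genes, coloured by place and ordered by the ratio. Most bars are below 0, with Tcap and Mylk2 the lowest, and Xirp1 and Flnc rise above it.

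A list of 34 further genes for the assembly and upkeep of sarcomeres and a list of 15 transcription factors of sarcomere genes were read from the same tests. Between the sham groups, 8 of the 34 were called (23.5%, against the 11.8% of all genes), 2 higher in young mice (Palld and Nexn) and 6 lower, led by Vcl, vinculin of the costamere (-1.70 ± 0.17, adjusted p = 5.15e-05). After burn in adult mice, 2 of the 34 were called (5.88%, against 0.909% of all genes), both higher. They were Hspb1 (0.97 ± 0.13, adjusted p = 0.00236) and Trim63, the ubiquitin ligase MuRF1, which targets thick filament proteins (1.15 ± 0.22, adjusted p = 0.0257). Trim63 had 248, 345 and 389 normalized CPM in adult sham and 636, 938 and 601 in adult burn, without overlap. With all 12 libraries, edgeR and DESeq2 called 0 of the 34 after burn in adult mice, each with 2 at an unadjusted p under 0.05. Over all genes such a p was found for 852 of 12408 by edgeR and 712 of 28519 by DESeq2. After burn in young mice and in the interaction, 0 of the 34 were called by edgeR, with 12 and 8 at an unadjusted p under 0.05. Of all 12651 genes, 2027 and 1408 had such a p. DESeq2 called 2 and 0 of the 34 on 11 libraries and 7 and 0 on 12. After burn in young mice, it called 2.13% of all genes on 11 libraries and 4.62% on 12. Between the burned groups, 12 of the 34 were called (35.3%, against the 20.7% of all genes), 10 lower and 2 higher in young mice. Of the transcription factors, 4 were called between the sham groups (26.7%), 1 higher and 3 lower in young mice. Between the burned groups 7 were called (46.7%), 3 higher and 4 lower in young mice. These counts with all 12 libraries were 2 and 6 of the 34 and 3 and 2 of the transcription factors, where 3.76% and 10.8% of all genes were called. Srf, serum response factor, was lower in young mice in both (-0.69 ± 0.11 and -0.73 ± 0.12), and Myog, myogenin, was higher in both (1.69 ± 0.29 and 2.87 ± 0.28). Other myogenic factors went the other way on 11 libraries. Myod1 was called lower in young sham than in adult sham, and Myf6 lower in young burn than in adult burn.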

How the data were processed

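Poly-A RNA of gastrocnemius muscle was sequenced in 12 mice, 1 library each, with the NEBNext Ultra II kit and paired reads of 75 bases. STAR alignment to GRCm38 and its GeneCounts option, on the genes of Gencode M25, were used by the authors, and this option leaves out reads that fall on 2 genes. The submitters' processing notes name STAR 2.7.5c, bcl2fastq 2.20 and featureCounts 2.0.1. The deposited values are raw read counts per gene, not normalized, and which strand was counted is not stated in the sources used here. Reads carry no molecular identifiers. The study used DESeq2 for its own tests. Total counts ran from 4392605 to 5688512 per library. The small RNA counts of the same mice hold no protein-coding genes and were not used.

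By gene identifier, Gencode M21 (GRCm38) gave symbols, positions and exon lengths, and 260 of 55401 genes had no match. The groups were taken from the labels. Counts were fitted with edgeR 4.0.16 under R 4.3.3 and limma 3.58.1: TMM normalization, filterByExpr (minimum count 10, total at least 15), a mean per group, the quasi-likelihood test, two-sided, and Benjamini-Hochberg adjustment over the 12651 genes tested in 11 libraries (12408 in 12). SEs were derived from the test, as the absolute log2 fold change divided by the square root of its F statistic. Levels share 1 TMM scaling of all 12 libraries. Young burn replicate 2 was left out of the tests and given beside them. The steps were tested on simulated data. DESeq2 1.42.0, other scalings, no filter, fits on the compared groups alone, a replicate block and each library left out in turn were tried as alternatives. Figures were drawn with matplotlib 3.10.9.

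Genes called in any of the 5 comparisons, or among the 2 largest absolute log2 fold changes of one, were described with the value in each library of the groups compared. The others were described by range and counts. The members, the 6 groups by place and the other lists were chosen with earlier results of these data known. Each mouse is a separate animal, so the p-values set a difference between groups against the spread between mice. That spread was estimated over the 4 groups together, with young burn giving only 2 mice.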

Additional observations from a re-analysis of the deposited data

Results flagged for a closer look

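The burn effect differed between the ages in 2 of the 44 genes by the test of the difference itself, the interaction in edgeR on 11 libraries. For Smtnl1 the log2 fold change after burn in young mice exceeded that in adult mice by 1.47 (adjusted p = 0.0240), and for Myom3 by 1.49 (adjusted p = 0.0474). In both genes all 3 adult burn libraries were below all adult sham libraries, and the 2 young burn libraries used were above all young sham libraries. Young burn replicate 2, which was not used, was below all young sham libraries in both. With it in the fit the differences were 1.10 and 1.12 and neither was called (adjusted p = 0.683 for both).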

How the results depend on the processing

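Of the 35 called values of single genes, 17 held with each library left out in turn and 15 were also called with all 12 libraries, and none changed sign under any alternative. With all 12 libraries, edgeR called 7 of the genes between the sham groups (12 in 11 libraries), 0 after burn in adult mice (3), 0 after burn in young mice (0), 8 between the burned groups (18) and 0 in the interaction (2). DESeq2 on 11 libraries called 14 between the sham groups, 6 after burn in adult mice, 6 after burn in young mice, 22 between the burned groups and 6 in the interaction, and on 12 libraries 8, 0, 10, 15 and 0. Without a filter on low counts, the counts were 20 between the sham groups, 12 after burn in adult mice, 16 after burn in young mice and 19 in the interaction (6.73%, 2%, 2.11% and 0.859% of all 28070 genes were called), and the cause was not tested. After burn in young mice, library size alone gave 2 calls (353 of all 12651 genes) and a fit on the compared groups alone 2 (49 of 12272). TMM without the 45 genes and the 100 most abundant genes gave 1 in the interaction (8 of all 12651 genes). Leaving out each library in turn gave 8 to 16 calls between the sham groups, 0 to 5 after burn in adult mice, 0 to 2 after burn in young mice, 10 to 21 between the burned groups (10 without young burn replicate 3 and 11 without replicate 1) and 0 to 5 in the interaction. In the interaction, 5 genes were called without adult burn replicate 1 and 4 without adult sham replicate 3, against 0 without adult burn replicates 2 or 3, young burn replicates 1 or 3, or young sham replicate 3. After burn in adult mice, 5 were called without young sham replicate 2 and 0 without adult burn replicate 3. Libraries with the same replicate number did not deviate together, with correlations of -0.17 to 0.14, so the numbers were not taken as pairs. With a replicate block the counts were 11, 3, 0, 15 and 1 in the order of comparisons above. In that fit 1183, 72, 7, 1835 and 4 of all 12651 genes were called. With 2 or 3 libraries per group, small changes could not be detected.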
